A study of Homo sapiens with 9 samples.

Results

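The NDRG family, named for repression by N-myc, has 4 members in human cells, NDRG1, NDRG2, NDRG3 and NDRG4. They were found by their symbols in the gene tables of 9 RNA sequencing libraries, 4 genes of 26475 listed. The family was chosen by a measured value, the lower NDRG1 in DHE-treated cells that was already known from these libraries. NDRG2, NDRG3 and NDRG4 belong to it by name. The values of NDRG1 in that comparison are therefore a description and carry no test.

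Polyadenylated RNA came from Hep3B, an established human hepatocellular carcinoma line. All 9 libraries were from cells kept under hypoxia, for 6 h according to the design text, and no library without hypoxia was analysed here, so the size of any induction by low oxygen cannot be given. In the replicated set 3 libraries had the solvent DMSO and 3 had a compound labelled DHE. A dose set held single libraries of DMSO, of DHE labelled high and of DHE labelled low. Concentrations are not in the labels. Nor do the labels call the numbered libraries separate cultures, and the spread behind each p-value may therefore be technical.

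NDRG proteins share the fold of alpha/beta hydrolases but lack the residues that hydrolases need for catalysis. NDRG1 is a cytosolic protein made in response to hypoxia, iron depletion and other stress, it is repressed by MYC proteins, and loss of it causes an inherited neuropathy of Schwann cells. NDRG2 is best known from astrocytes and as a candidate tumour suppressor, and NDRG4 from heart and brain. NDRG3 is regulated mainly as a protein: the oxygen sensor EGLN1 marks it for destruction through VHL, and lactate binding protects it in hypoxia, where it promotes RAF and ERK signalling. RNA libraries do not show that step.

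In GRCh38.p14 NDRG1 lies on chromosome 8 from 133237175 to 133297252, NDRG2 on chromosome 14 from 21016763 to 21070872, NDRG3 on chromosome 20 from 36651771 to 36746090 and NDRG4 on chromosome 16 from 58463715 to 58515387. The files join 4 RefSeq transcripts for NDRG1, 14 for NDRG2, 3 for NDRG3 and 8 for NDRG4, all of which matched the same genes in the RefSeq table. The mean length of a gene's transcripts, weighted by their estimated abundance, stayed between 3080 and 3081 bases for NDRG1, 2063 and 2077 for NDRG2, 3012 and 3021 for NDRG3, and 3184 and 3205 for NDRG4 over the 9 libraries.

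The libraries held 22167516 to 36267216 counts. All 12 hepatocyte markers, among them ALB and AFP, were found, with a summed level of 26753 to 60022 TPM, a level scaled for transcript length and library total. Of 8 leukocyte markers 5 stayed below 1 TPM in all libraries, PTPRC among them at no more than 4 counts, and so did 5 of 8 fibroblast, 5 of 6 endothelial and 5 of 8 neural markers. DCN, ACTA2, KDR and STMN2 had 0 counts in all 9 libraries. The leukocyte markers that reached 1 TPM in some library were LYZ, CD68 and CD14. In the other lists these were LUM, COL1A1 and PDGFRB (fibroblast), PECAM1 (endothelial), and SNAP25, MAP2 and SYT1 (neural). LUM reached 45.5 TPM, COL1A1 20.3 TPM, PDGFRB 5.74 TPM and PECAM1 1.8 TPM. In chi-square units per gene, DHE replicate 1 was 30.9 and 36.4 away from the other DHE libraries, which were 5.83 apart. The DMSO replicates were 9.12, 13.9 and 15.7 apart.

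NDRG1 was by far the most abundant member, and NDRG2 lay closer to NDRG3 in the replicated set than in the dose set. NDRG1 made up 86.1% to 94.0% of the family's summed TPM in every library and ranked 140 to 281 among all genes of a library by TPM. In the DMSO replicates it stood at 735, 776 and 766 TPM. NDRG3 followed at 30.9, 35.4 and 34.5 TPM and NDRG2 at 30.0, 34.5 and 35.2 TPM, so these neighbours in the order did not differ beyond their spread. NDRG4 came last at 12.6, 14.6 and 14.1 TPM.

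**Figure D1:**
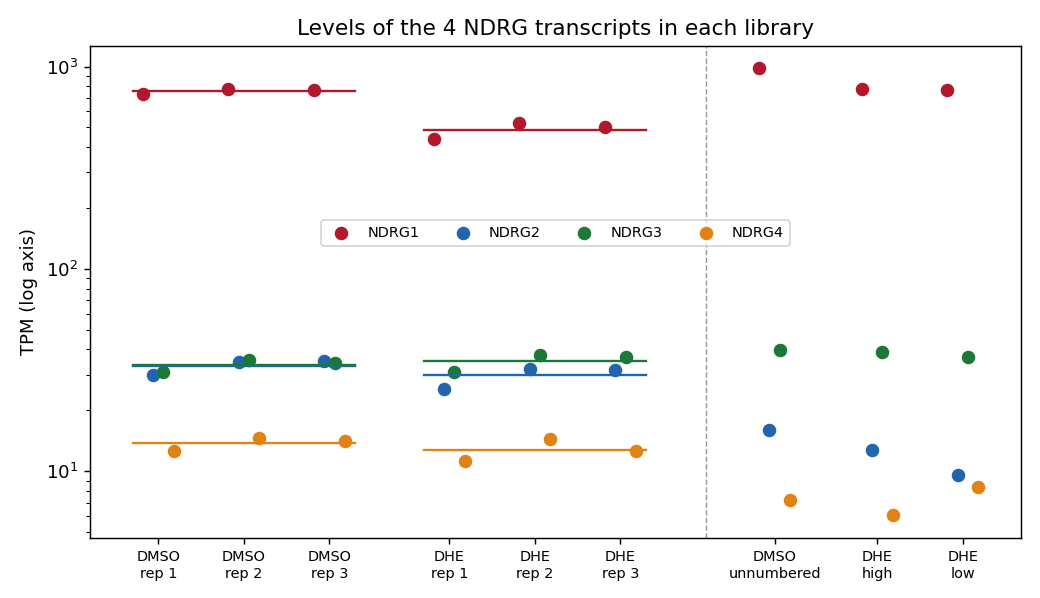
TPM (log axis) of the 4 NDRG transcripts in each of the 9 libraries, 1 point a library, with horizontal lines at the means of the 3 DMSO and the 3 DHE replicates. NDRG1 lies between 440.1 and 981 TPM in every library, far above the other 3 members, which stay between 6.05 and 39.7 TPM.

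In the DMSO library of the dose set NDRG1 was at 981 TPM and NDRG3 at 39.7 TPM, while NDRG2 was at 16.0 TPM and NDRG4 at 7.19 TPM. NDRG2 was thus well below NDRG3 here, though 1 control library gives no spread. In the DHE replicates NDRG3 was at 30.9, 37.6 and 36.6 TPM and NDRG2 at 25.6, 32.2 and 31.7 TPM. Their ranges overlapped, but within each DHE replicate NDRG2 was below NDRG3. On a common scale of CPM, counts scaled to the library total, with TMM factors over all 9 libraries, NDRG1 had 1827 CPM in this library against 1270.1 ± 36.4 CPM in the DMSO replicates (SD, n = 3), 1.44 times as much. NDRG3 had 72.4 against 54.8 ± 0.929 CPM. NDRG2 had 19.1 against 35.3 ± 1.33 CPM and NDRG4 13.9 against 24.0 ± 0.468 CPM, so that the replicates held 1.84 and 1.72 times as much of these. Set and control culture cannot be told apart here. The summed level of the 8 neural markers was 7.51 to 9.24 TPM in the dose set and 31.1 to 44.6 TPM in the replicated set. SNAP25, the main part of the sum in the replicated set, had 976 to 1213 counts there and 21 to 60 in the dose set, where MAP2 was the larger part. The part of these markers in the levels of NDRG2 and NDRG4 was not tested. In such bulk samples fewer cells that express a gene and less RNA per cell cannot be told apart.

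Start sites of NDRG2 and NDRG4 were read for the core of the hypoxia response element, RCGTG, the sequence that HIF binds, because hypoxia is the condition all libraries share. RefSeq promoters of GRCh38.p14, 250 bases before to 50 after a start, held 5 starts for NDRG2 and 4 for NDRG4, and NDRG1 and NDRG3 had no entry. ACGTG or GCGTG was present on either strand in 3 of 5 NDRG2 windows, 2 of which overlap and share the match, and in 1 of 4 NDRG4 windows, against 48.4% of all 35116 windows. CACGTG, the E-box that MYC and its partners bind and that contains ACGTG, was in none of the 9 windows and in 7.26% of all windows. The gene-level counts do not show which start was used. The upper sequence below is 1 of the 2 overlapping NDRG2 windows, on the minus strand at chr14:21025056-21025355, and the lower one is the most upstream NDRG4 window, on the plus strand at chr16:58463465-58463764, with 4 matches, a number that 4.397% of all windows reach. Capitals mark the core, which reads CACGC where it lies on the other strand.
NDRG2: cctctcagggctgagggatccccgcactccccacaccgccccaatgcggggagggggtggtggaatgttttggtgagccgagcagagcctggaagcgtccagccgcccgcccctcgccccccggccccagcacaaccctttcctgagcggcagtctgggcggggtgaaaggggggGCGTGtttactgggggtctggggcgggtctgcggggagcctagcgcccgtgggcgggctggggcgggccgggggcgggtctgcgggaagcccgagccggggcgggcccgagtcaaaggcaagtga
NDRG4: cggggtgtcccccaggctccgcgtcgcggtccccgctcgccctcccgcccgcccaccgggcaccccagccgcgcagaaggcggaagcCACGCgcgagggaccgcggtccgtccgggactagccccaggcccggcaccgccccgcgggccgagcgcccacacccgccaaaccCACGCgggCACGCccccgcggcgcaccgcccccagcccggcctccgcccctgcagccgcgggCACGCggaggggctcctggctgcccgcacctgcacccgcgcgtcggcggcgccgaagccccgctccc

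In the replicated set DHE-treated cells held less NDRG1 transcript than the controls, while the differences of NDRG2, NDRG3 and NDRG4 did not pass the test. NDRG1 had 1352, 1297 and 1284 CPM in the DMSO replicates and 847, 821 and 807 CPM in the DHE replicates (TMM factors over these 6 libraries). Each DHE library lay below every DMSO library, with a gap far wider than the spread in either group. The log2 fold change was -0.67 ± 0.05 (SE), or 1.59-fold lower, and 5.15% of the 14492 genes tested had a lower value. In TPM the same libraries gave 735, 776 and 766 with DMSO and 440.1, 524 and 501 with DHE.

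NDRG2 had 35.0, 36.5 and 37.7 CPM with DMSO and 31.2, 32.2 and 32.2 CPM with DHE. The groups did not overlap on this scale, but the difference, a log2 fold change of -0.19 ± 0.07 (SE), or 1.14-fold, did not pass the threshold of 0.05 (edgeR adjusted p = 0.0536). In TPM the groups overlapped, at 30.0 to 35.2 with DMSO and 25.6 to 32.2 with DHE. With only genes of at least 1 CPM in 3 libraries the adjusted p was 0.0463, so the call rests on the filter, while the other alternatives without the replicate number gave 0.05004 to 0.490.

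NDRG3 had 55.7, 57.8 and 56.4 CPM with DMSO and 58.0, 57.5 and 57.5 CPM with DHE. The groups overlapped, and the log2 fold change of 0.03 ± 0.05 (SE) did not pass (edgeR adjusted p = 0.750). NDRG4 had 24.3, 25.3 and 24.6 CPM with DMSO and 22.6, 23.6 and 21.1 CPM with DHE. Its groups did not overlap in CPM but did in TPM, and the log2 fold change of -0.14 ± 0.08 (SE) did not pass either (edgeR adjusted p = 0.212).

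Of NDRG2, NDRG3 and NDRG4, 0 were called by edgeR with its default filter and no replicate block, nor by DESeq2, limma-voom or limma on TPM. Before adjustment the edgeR p was 0.0144 for NDRG2, 0.622 for NDRG3 and 0.0976 for NDRG4. The share of all tested genes under 0.05 before adjustment was not counted. Over all tested genes 26.2% were called, 13.4% higher and 12.8% lower. Groups without overlap in CPM were seen for 3 members, NDRG1, NDRG2 and NDRG4, all with DHE below DMSO. Of all tested genes 41.6% had groups without overlap in either direction and 20.8% with DHE below DMSO. Nothing is read from these counts, since the comparison is the one in which the family was noticed.

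The ratio between members within a library does not depend on how libraries are scaled. NDRG1 exceeded NDRG3 in TPM by a factor of 23.8, 21.96 and 22.2 in the DMSO replicates and by 14.3, 13.9 and 13.7 in the DHE replicates. All 3 DHE values lay below all DMSO values. NDRG2 over NDRG3 was 0.970, 0.977 and 1.02 with DMSO and 0.828, 0.854 and 0.865 with DHE. NDRG4 over NDRG3 was 0.409, 0.411 and 0.408 with DMSO and 0.366, 0.385 and 0.343 with DHE. In these ratios too each DHE value lay below every DMSO value, but such ratios were not computed for other genes. The share of NDRG1 in the family's TPM was 90.4 ± 0.424% with DMSO and 86.3 ± 0.307% with DHE (SD, n = 3 each).

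The dose set used other libraries, with 1 per condition, so its ratios have no replicate check, and both treated libraries share 1 control. NDRG1 had 1723 CPM with DMSO, 1262 CPM at the dose labelled high and 1203 CPM at that labelled low (TMM factors over these 3 libraries). Its level at high was 1.37-fold lower, with a 95% exact binomial interval of 1.35 to 1.39. At low it was 1.43-fold lower (1.41 to 1.45). Intervals cover counting error only. Over the 13468 genes that reached 20 counts in any library of this set, the middle 50% of log2 ratios ran from -0.23 to 0.19 at high and from -0.31 to 0.29 at low, and NDRG1 was at -0.45 and -0.52. Fewer genes had a lower ratio than NDRG1 at high (12.8%) than at low (16.3%).

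NDRG2 was also lower at both labelled doses. It had 462 counts in the DMSO library, 337 at high and 226 at low, or 18.02, 13.2 and 9.72 CPM. The log2 ratio was -0.45 at high (-0.66 to -0.25) and -0.89 at low (-1.13 to -0.66). NDRG3, with 68.3, 61.6 and 56.5 CPM, was at -0.15 (-0.25 to -0.05) and -0.27 (-0.38 to -0.17), values inside the middle 50% of genes.

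NDRG4 differed between the treated libraries. It had 13.1 CPM with DMSO, 10.2 at high and 13.7 at low, with log2 ratios of -0.36 (-0.61 to -0.13) and 0.06 (-0.16 to 0.29). Set directly against the library labelled low, the library labelled high had less NDRG4 (log2 ratio -0.43, -0.67 to -0.19) and more NDRG2 (0.44, 0.19 to 0.69). For NDRG1 and NDRG3 the corresponding ratios were 0.07 (0.05 to 0.09) and 0.12 (0.02 to 0.23). These depend on the scaling: NDRG1 was at 0.0048 with library totals and 0.025 on log2(TPM + 1), and NDRG3 at 0.06 and 0.08. The treated libraries were thus not told apart for NDRG1, while NDRG2 (0.37 in both settings) and NDRG4 (-0.49 and -0.41) stayed within their intervals. NDRG1 exceeded NDRG3 in TPM by a factor of 24.7 with DMSO, 20.03 at high and 20.8 at low.

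**Figure D2:**
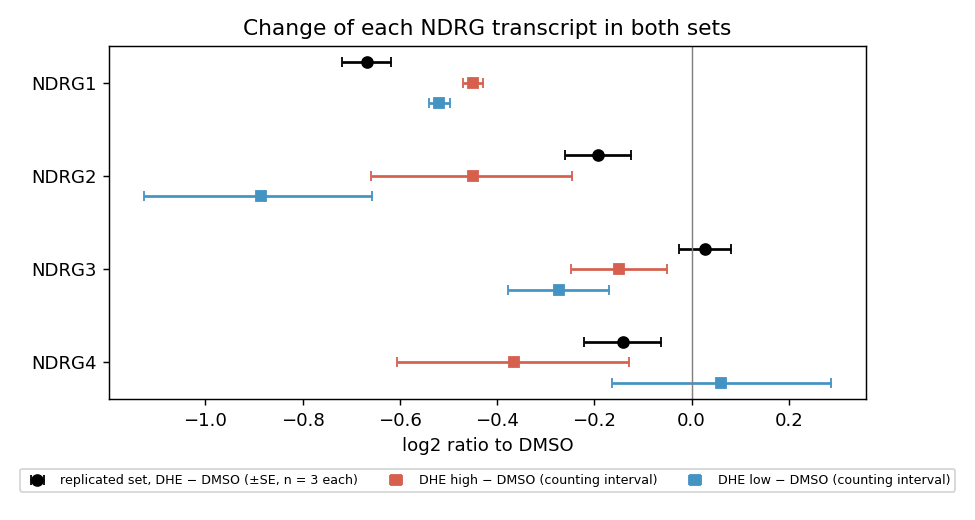
Log2 ratio to DMSO (horizontal axis) of each NDRG transcript. Black circles are the replicated set (bars: SE, n = 3 each), and squares are single libraries of the dose set labelled high (red) and low (blue), with 95% exact binomial intervals that cover counting error only. NDRG1 lies at -0.67, -0.45 and -0.52, and NDRG3 at 0.03, -0.15 and -0.27.

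Of 12 genes for kinases that act on NDRG proteins and for mTORC2, all tested, 3 rose and 1 fell by edgeR in the replicated set, where 13.4% of all tested genes rose and 12.8% fell. A total of 4 of 12 is near the 26.2% called over all genes. The median log2 fold change was 0.03 against 0.00 over all tested genes. SGK1, the kinase whose activity is often read from phosphorylated NDRG1, rose 2.18-fold (1.12 ± 0.14, edgeR adjusted p = 1.02e-04), from 4.15 to 9.05 CPM. GSK3B and GSK3A, kinases that act on NDRG1 after SGK1, rose 1.25-fold and 1.11-fold, and SGK2 fell 1.16-fold. MAPKAP1, a subunit of the mTORC2 complex that activates SGK kinases, was at 0.13 and did not pass (edgeR adjusted p = 0.182), as was the case for MTOR, RICTOR and MLST8. The edgeR call of SGK2 ended without DMSO replicate 2 (adjusted p = 0.0707) or DHE replicate 3 (0.0673), and that of GSK3A when DMSO replicate 1 was left out (0.130), DMSO replicate 3 (0.129), DHE replicate 2 (0.113) or DHE replicate 3 (0.106). With limma on log2(TPM + 1) GSK3B (adjusted p = 0.134), SGK2 (0.418) and GSK3A (0.371) did not pass.

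SGK1 went the other way in the dose set. It had 78 counts with DMSO, 50 at high and 28 at low, with log2 ratios of -0.62 and -1.28. GSK3B was at 0.42 and 0.55 there and SGK2 at -0.24 and -0.25.

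Among 14 transcription factors linked to the control of NDRG genes, 12 could be tested, and 3 rose and 1 fell, with a median of -0.02. Over all tested genes 13.4% rose and 12.8% fell, and the total called in the list is near the 26.2% over all genes. Nothing is read from so few genes. HIF1A, the oxygen-regulated HIF subunit, rose 1.23-fold, and MXD4 and MXD1, which compete with MYC for its partner MAX, rose 1.17-fold and 1.20-fold. MXI1, of the same group and itself induced by hypoxia, fell 1.29-fold. EPAS1, the HIF-2 alpha gene, was at -0.14 (edgeR adjusted p = 0.0654), a value that passed with DESeq2 (0.0380) and limma-voom (0.0446), and ATF4, a stress factor and the most abundant of the list at 682 TPM, was at 0.03 (edgeR adjusted p = 0.649). MYCN and WT1 had 0 counts in all 9 libraries. MYC itself was at 0.05 (edgeR adjusted p = 0.542).

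Several of these calls ended when 1 library was left out, a setting that also leaves fewer replicates. MXD1 lost its edgeR call without DMSO replicate 1 (adjusted p = 0.0836), DMSO replicate 3 (0.0924) or DHE replicate 2 (0.0791), MXD4 without DMSO replicate 1 (0.0509) or DHE replicate 3 (0.0631), and MXI1 without DMSO replicate 3 (0.0516). In these fits MXD1 was at 0.23, MXD4 at 0.21 and 0.18 and MXI1 at -0.30. With all replicates they were at 0.26, 0.22 and -0.37. Without DMSO replicate 1, 1 member of the list was higher. With limma on log2(TPM + 1) HIF1A (adjusted p = 0.0815), MXD4 (0.267), MXD1 (0.269) and MXI1 (0.175) did not pass.

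The genes around NDRG3, which sense oxygen, make or move lactate, or carry the RAF and ERK signal, number 12 in the list. Of these 11 could be tested, and 3 rose and 1 fell, against 13.4% and 12.8% of all tested genes, with a median of 0.06. That total is also near the 26.2% called over all genes. EGLN2 and EGLN1, prolyl hydroxylases that use oxygen, rose 1.19-fold and 1.13-fold, and SLC16A1, a lactate transporter, rose 1.29-fold. MAPK3, the ERK1 gene, fell 1.24-fold. LDHA, the lactate dehydrogenase subunit that favours lactate production and the most abundant gene of the list at 1740.2 TPM, was at 0.11 (edgeR adjusted p = 0.178), and SLC16A3, the lactate exporter, at -0.17 (0.0590). SLC16A3 passed with DESeq2 (adjusted p = 0.0303) and limma-voom (0.0439), with no filter on low counts (0.0482), with that of at least 1 CPM in 3 libraries (0.0494) and without DMSO replicate 1 (0.0424). LDHB, the other main subunit, had at most 24 counts in a library and was not tested.

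EGLN1 lost its edgeR call when DMSO replicate 1 was left out (adjusted p = 0.0567), DMSO replicate 2 (0.0859) or DHE replicate 2 (0.0795). Leaving out DMSO replicate 1 or DMSO replicate 3 gave 2 lower members in this list in place of 1. With limma on log2(TPM + 1) EGLN1 (adjusted p = 0.327), EGLN2 (0.165), SLC16A1 (0.108) and MAPK3 (0.210) did not pass. In the dose set MAPK3 was at -0.28 and -0.48 and EGLN1 at 0.06 and 0.07, while SLC16A1 was lower there, at -0.32 and -0.50.

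Of 12 binding partners and genes linked to NDRG1, all tested, 3 rose and 1 fell, with a median of 0.04. Over all tested genes 13.4% rose and 12.8% fell, and here too the total called is near the 26.2% over all genes. Nothing is read from so few genes. CTNNB1, the beta-catenin gene, rose 1.24-fold, SMAD4, a mediator of TGF-beta signals, 1.22-fold and APOA1, an apolipoprotein that binds NDRG1, 1.21-fold. CDH1, the gene for E-cadherin, whose recycling NDRG1 supports, fell 1.22-fold. APOA2, the most abundant at 20434 TPM, was at 0.29 (edgeR adjusted p = 0.175), a value that rests on DHE replicate 1, without which it was 0.03 (0.821). The edgeR call of APOA1 ended without DMSO replicate 2 (adjusted p = 0.0541). With limma on log2(TPM + 1) CTNNB1 (adjusted p = 0.0642), SMAD4 (0.233) and CDH1 (0.167) did not pass. In the dose set CDH1 was at -0.43 and -0.62 and APOA1 at -0.98 and -2.30.

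NDRG1 stood among 26 other hypoxia-induced genes as one of the most abundant. By mean TPM over the 9 libraries it ranked 3 of 27, after PGK1 and DDIT4. By log2 fold change in the replicated set it ranked 4 of 27, after ANGPTL4, CA12 and ANKRD37. The family was chosen by the lower NDRG1 in that comparison, so the latter rank is a description only. In the dose set NDRG1 ranked 9 of 27 at high and 12 of 27 at low. Of the 26 genes 14 fell and 2 rose in the replicated set, where 12.8% of all tested genes fell and 13.4% rose, with a median of -0.22 against 0.00 over all tested genes. HIF targets had been seen to be lower in these libraries before the list was drawn up, so its direction is not independent evidence.

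ANGPTL4, an inhibitor of lipoprotein lipase, was at -1.06, CA12, a membrane carbonic anhydrase, at -0.93, LOX, which crosslinks collagen, at -0.57 and ADM, the adrenomedullin gene, at -0.49, all called by edgeR. In the dose set ANGPTL4 was at -0.59 and -0.84, CA12 at -0.62 and -1.35 and LOX at -0.91 and -1.85, but ADM at -0.02 and 0.09. PFKFB3, a regulator of glycolysis, rose by 0.61 and was at 0.09 and -0.61 in the dose set. PGK1, a glycolytic enzyme and the most abundant of the list, was at -0.13 (edgeR adjusted p = 0.0695), and passed with DESeq2 (0.0306), limma-voom (0.0336) and without DHE replicate 1 (0.0159). Without any 1 of DMSO replicates 1, 2 or 3 or DHE replicate 3, 1 gene of the list was higher in place of 2. In the dose set 17 of 26 genes were below 0 at high and 16 at low, with medians of -0.15 and -0.16.

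**Figure D3:**
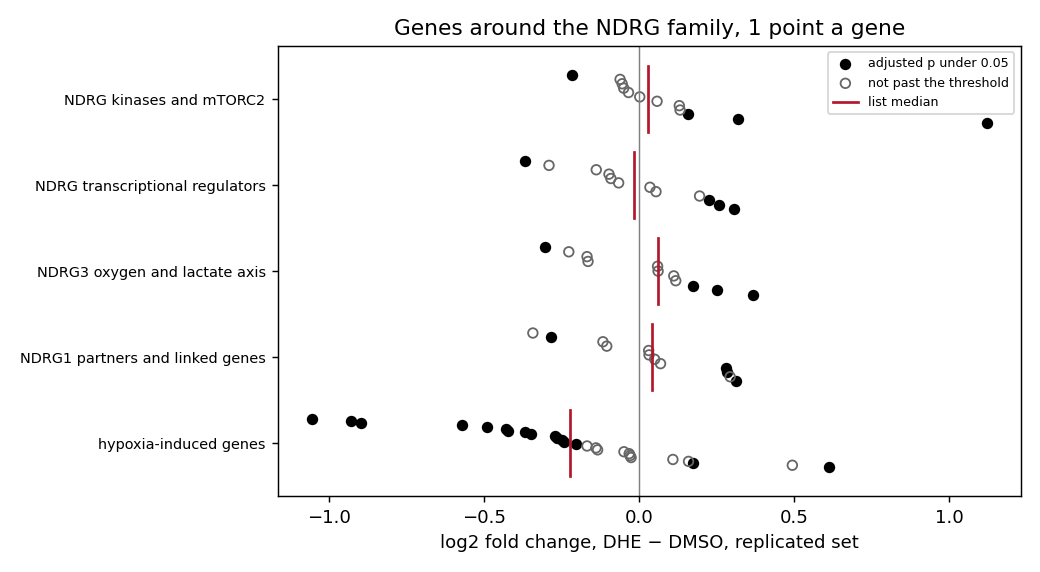
Log2 fold change between DHE and DMSO in the replicated set (horizontal axis) for the tested genes of 5 lists, 1 point a gene. Filled points passed edgeR at an adjusted p under 0.05, and red bars are list medians. The median of the hypoxia-induced genes is -0.22, and those of the other 4 lists lie between -0.02 and 0.06.

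The genes whose pattern over the libraries was most like that of NDRG1 were looked up, and its relatives were set beside them. Patterns were compared as Pearson's r over the 9 libraries of log2 CPM, centred on the mean of each set, among 10922 other genes with a mean of at least 5 CPM. All genes share the same libraries and treatment groups, and the named genes are the highest of many, so r only describes likeness. The genes most like NDRG1 were FAH, an enzyme of tyrosine breakdown (r = 0.996), CD68, a lysosomal glycoprotein (0.991), GOLT1A, a vesicle transport gene (0.988), and RRAS, a small GTPase gene (0.986). Their log2 fold changes in the replicated set ran from -1.09 for CD68 to -0.45 for GOLT1A.

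CD68 is also one of the 8 leukocyte markers, whose summed level was 114 to 127 TPM in the DMSO and 69.5 to 74.4 TPM in the DHE replicates, and 160 TPM, 148 TPM and 107 TPM with DMSO, high and low in the dose set. LYZ and CD68 gave most of that sum, PTPRC was at no more than 0.06 TPM and CD3E at no more than 0.08 TPM. The part of these markers in the NDRG1 difference was not tested.

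Between members r with NDRG1 was 0.67 for NDRG2, 0.49 for NDRG4 and 0.22 for NDRG3. NDRG2 and NDRG3 were the most alike pair (r = 0.84), and NDRG3 and NDRG4 the least (-0.17). The r of 0.84 rests mainly on the dose set, with 1 library per condition. Centred NDRG3 ran from -0.14 to 0.14 there and from -0.04 to 0.03 in the replicated set. In the replicated set the log2 fold change was -0.19 for NDRG2 and 0.03 for NDRG3. NDRG2 was most like SLC7A2, a transporter of basic amino acids (0.993), RECK, an inhibitor of matrix proteases (0.993), and CKB, brain-type creatine kinase (0.992). NDRG3 was most like CALML4 (0.990), FXYD3 (0.990) and VNN2 (0.989). In the replicated set these genes were at 0.10, 0.26 and 0.32. In the dose set they were at -0.56 to -1.34 at high and -1.01 to -2.27 at low. NDRG3 thus resembled genes by their direction in the dose set, at a much smaller size. NDRG4 was most like SLC4A3, an anion exchanger (0.965), NEURL3 (0.947) and SOAT1, which esterifies cholesterol (0.942).

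**Figure D4:**
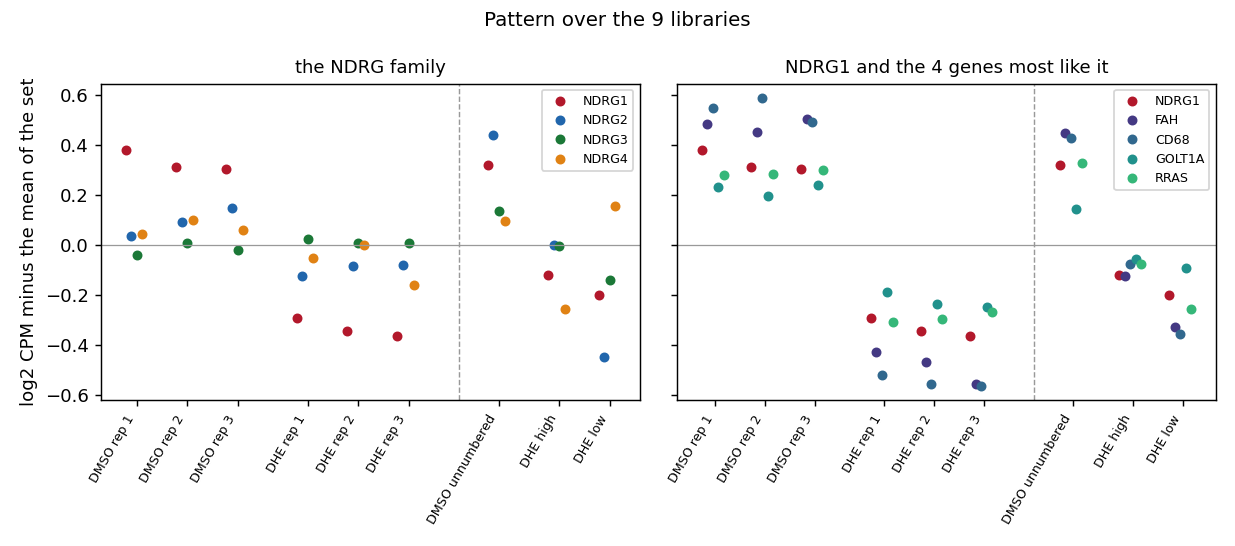
Log2 CPM minus the mean of the gene's own set (vertical axis) in the 9 libraries, for the NDRG family (left) and for NDRG1 with the 4 genes most like it (right). 1 point is 1 library, and points are shifted sideways to keep them apart. NDRG1 lies above 0 in all 4 DMSO libraries and below 0 in all 5 DHE libraries, as do the 4 genes beside it.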

How the data were processed

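Gene expression was measured by RNA sequencing in 9 Hep3B libraries, grouped by the sample titles. The deposited expected counts are RSEM estimates per gene, not normalized, per the file headers. The deposited TPM values are RSEM's levels per transcript length. The mean transcript lengths are other deposited values, and FPKM values from the authors were not used. Per the submitters' processing notes, reads were placed on GRCh38. Which aligner, tool versions and strand setting served is not given in the sources used here. Overlapping genes are therefore uncertain.

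Expected counts were rounded. For the 6 replicated libraries edgeR 4.0.16 was run under R 4.3.3 (TMM, default low-count filter, two-sided quasi-likelihood F-test, 14492 genes, Benjamini-Hochberg over all of them, threshold 0.05), and the SE is the absolute log2 fold change over the square root of F. Dose ratios used TMM CPM with a prior count of 2. In each library 0 counts would allow up to 3 counts, or 0.0827 to 0.135 CPM. DESeq2 1.42.0 and limma 3.58.1 were alternatives. On simulated counts for 14492 genes this fit recovered 54% of 50 genes changed 1.3-fold and 72% of 50 changed 1.5-fold. Larger changes of 2-fold were recovered for 92% and of 3-fold for 98%, with 17 false among 175 calls. Only these genes were changed, a far smaller share than the 26.2% called in the data. The adjusted threshold depends on that share, so these rates need not hold for the data.

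The members and lists were chosen with earlier results of these data known. Named from each list are the 5 tested genes with the smallest p and the most abundant, and for each member the genes with the highest r. Some genes under this rule are not reported here. MYC, MTOR, RICTOR, MLST8, CD68 in its marker list, DDIT4 and ANKRD37 were named after their values were seen. Figures were drawn with matplotlib 3.10.9.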

Additional observations from a re-analysis of the deposited data

Results flagged for a closer look

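A pattern of opposite directions was met in 3 of the 28 genes named from the lists. In these all DHE replicates lay above all DMSO replicates. Both DHE libraries of the dose set lay below their DMSO library by more than counting error. The share of all tested genes with this pattern was not counted, though 41.6% had replicate groups without overlap in either direction. The difference between the sets was not tested. SGK1, at 1.12 ± 0.14 (log2 fold change, SE) in the replicated set, had log2 ratios of -0.62 at high (95% exact binomial interval -1.18 to -0.11) and -1.28 at low (-2.02 to -0.70). SLC16A1, at 0.37 ± 0.08, had -0.32 (-0.43 to -0.21) and -0.50 (-0.62 to -0.38). APOA1, at 0.28 ± 0.07, had -0.98 (-1.005 to -0.957) and -2.30 (-2.34 to -2.27). No member of the NDRG family was of this kind. Of 42 other list genes, 3 went the same way (ERRFI1, P4HA1 and SLC2A3) and 3 were lower in the replicated and higher in the dose set (PDK1, ERO1A and STC2), all singled out after their values were seen.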

How the results depend on the processing

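NDRG1 was lower by a log2 fold change of 0.64 to 0.69 under all 16 alternatives for the replicated set. NDRG2 did not pass as reported and passed with the filter of at least 1 CPM in 3 libraries (log2 fold change -0.19, adjusted p = 0.0463) and when the replicate block was added (-0.19, adjusted p = 0.0456). NDRG3 and NDRG4 passed under none of the 16. Same-numbered libraries were not found to pair, since their deviations correlated at 0.09, 0.05 and -0.05 for numbers 1, 2 and 3, and not every library correlated best with its own number. With the block EPAS1 (adjusted p = 0.0371), SLC16A3 (0.0145) and APOA2 (0.0128) passed as well. The block gave 2250 genes higher and 2186 lower, where the reported fit had 1945 and 1858. Limma called 530 higher and 434 lower on log2(TPM + 1), and 501 and 409 on log2(TPM + 0.1). The cause was not tested. Without DMSO replicate 3 MAPKAP1 was at 0.065, and without DHE replicate 1 LDHA was at 0.063 and ATF4 at 0.010, all still not past the threshold. With any 1 library left out, the calls ranged from 1329 to 2032 genes up and from 1242 to 1948 down.

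In the lists, leaving out each library gave 0 to 1 lower for kinases, 1 to 3 higher and 0 to 1 lower for transcription factors, 1 to 2 lower for the NDRG3 genes, and 1 to 3 higher for the hypoxia-induced genes. With DESeq2 or the block 2 transcription factors and 2 NDRG3 genes were lower in place of 1 each. Of 28 genes named from the lists, 14 lost their call on log2(TPM + 1) and 14 on log2(TPM + 0.1), and 0 changed direction under any alternative.

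In the dose set NDRG1 was at -0.37 (high) and -0.38 (low) with library totals and at -0.33 and -0.36 on log2(TPM + 1). NDRG3 at low was at -0.13 and -0.11 in the same settings, and NDRG3 at high at -0.030 on log2(TPM + 1). These settings move the median of all genes to 0.08 (high) and 0.15 (low) with totals and to 0.10 and 0.15 in TPM, so relative to it the ratios change less. With 226 to 462 counts a library, NDRG2 and NDRG4 have the widest counting intervals.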
